A study of Homo sapiens with 19 samples.

Results

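The genes described here are 6 genes of neutrophil granule contents, AZU1, PRTN3, ELANE, CTSG, LYZ and SRGN, and PRAM1, the gene of a myeloid adaptor protein, which makes 7. They were taken by name from GENCODE release 44 on hg38, and all 7 were found among its 20046 protein-coding genes. They sit at 5 loci, because AZU1, PRTN3 and ELANE are neighbours on chromosome 19 and were read as 1 locus. The peaks within 10 kb of each transcription start site (TSS) and over each gene body were taken from 12 peak lists. The windows of the 3 chromosome 19 genes overlap, so the 7 genes give fewer than 7 independent observations.

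CUT&RUN, which releases with a tethered nuclease the chromatin that an antibody has bound, had been run on MOLM-13, an established human acute myeloid leukaemia line. Cells received Corin, a dual inhibitor of the demethylase LSD1 and of the deacetylases that share the CoREST repressor complex with it, or the vehicle DMSO. Treatment was 24 h at a labelled 0.1 µM, a dose that the labels also attach to DMSO, where its meaning is unclear. Each treatment had 2 libraries for H3K27ac, H3K4me2 and H3K4me3, which makes 12, and the other 7 of the 19 libraries (4 with all-trans retinoic acid and Corin, 1 against LSD1, 2 with IgG) were not analysed here. All libraries came from this 1 line, and the labels do not say whether a replicate is a separate culture, so p-values measure only the spread between these libraries, which may be technical.

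Azurophil granules are the first granules that a promyelocyte makes. They are filled with serine proteases and antimicrobial proteins on a scaffold of the proteoglycan serglycin, and their genes are classically transcribed under PU.1, C/EBP and MYB factors at the promyelocyte stage and silenced later. Of the modifications measured, H3K27ac marks active promoters and enhancers, H3K4me2 is a substrate of LSD1 that marks both kinds of element, and H3K4me3 lies mostly at promoters.

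The deposited lists give where peaks lie and how they scored, without read counts, and read depth is not known beyond what the labels promise per library, so no detection limit can be given. The H3K27ac lists held 34424 and 30029 peaks after Corin against 17599 and 19995 after DMSO. The H3K4me2 lists held 41152 and 40042 against 30896 and 32299, and the H3K4me3 lists 11757 and 11883 against 11104 and 11343. List size thus moved with the treatment. For that reason counts are also given at a matched number of peaks, that is, with as many top-scoring peaks from each list as the smallest list of the mark holds. H3K4me3 lay over the TSS in 4 of 4 libraries at 6 of 10 myeloid leukaemia markers (SPI1, CEBPA, FLT3, CD4, HOXA9, MEIS1). At CD33 it did so in 1 library, and at CSF1R, ITGAM and MPO in 0. None of the 4 T cell, 5 B cell, 3 megakaryocyte or 4 epithelial markers had it in any library, and of the 5 erythroid markers only EPOR did, in 2 libraries.

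The promoters and elements that the results turn on are shown first. RefSeq on GRCh38.p14 gave a promoter for 3 of the 7 genes, AZU1, PRTN3 and CTSG. The 250 bases that precede each TSS are printed 5′ to 3′ on the strand of the gene, with matches to 5 motifs in capitals. The motifs were GAGGAA (PU.1 core), TTNCNNAA (C/EBP half-sites), AACNG (MYB core), TGNGGT (RUNX core) and TATAAA, each searched on both strands. AZU1 lies at chr19:827587-827836 (+), PRTN3 at chr19:840749-840998 (+) and CTSG at chr14:24576251-24576500 (-). None of the 3 stretches overlaps an annotated exon, although that of AZU1 lies inside the gene record, which begins 2740 bp upstream of the TSS used here.
AZU1: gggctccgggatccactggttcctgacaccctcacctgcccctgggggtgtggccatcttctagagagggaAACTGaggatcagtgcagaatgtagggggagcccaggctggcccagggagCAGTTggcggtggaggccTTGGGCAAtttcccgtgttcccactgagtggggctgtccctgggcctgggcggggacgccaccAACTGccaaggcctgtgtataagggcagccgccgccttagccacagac
PRTN3: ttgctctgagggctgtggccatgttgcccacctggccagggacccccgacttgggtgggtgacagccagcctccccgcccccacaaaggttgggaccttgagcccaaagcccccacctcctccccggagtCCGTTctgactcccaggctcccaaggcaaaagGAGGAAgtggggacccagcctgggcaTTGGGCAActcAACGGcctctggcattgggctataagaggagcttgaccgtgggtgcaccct
CTSG: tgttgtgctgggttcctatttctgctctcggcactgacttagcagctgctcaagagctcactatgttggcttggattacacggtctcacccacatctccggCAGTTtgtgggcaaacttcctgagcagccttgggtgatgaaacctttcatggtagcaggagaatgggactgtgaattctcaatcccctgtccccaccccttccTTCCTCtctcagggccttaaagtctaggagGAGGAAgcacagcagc

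AZU1 and PRTN3 both held the 8 letters TTGGGCAA, a match to TTNCNNAA on the minus strand, beginning 111 bases before the AZU1 TSS and 62 before that of PRTN3. PRTN3 also had GAGGAA at 88 bases, and CTSG had 2 matches to it, at 46 and 16 bases. AACNG had 3 matches in AZU1, 2 in PRTN3 and 1 in CTSG. Over 35116 RefSeq promoters of the same length, 33.2% held TTNCNNAA, 23.6% held GAGGAA and 70.6% held AACNG, so each match is common. TGNGGT (37.7% of promoters) and TATAAA (10.7%) had no match in the 3 windows. All of the PRTN3 sequence lay under H3K27ac, H3K4me2 and H3K4me3 peaks in every library. So did that of AZU1, except for 3 bases outside H3K4me3 in DMSO replicate 1, where 247 of 250 bases were covered. The CTSG promoter was under H3K4me2 in all 4 libraries and under H3K4me3 in 0. H3K27ac covered all 250 of its bases in 3 libraries and 57 in DMSO replicate 1.

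2 distal elements, 1 at LYZ and 1 at SRGN, had a peak in both Corin lists and neither DMSO list for H3K27ac and also for H3K4me2, and they are shown for that reason. They were 2 of 50 H3K27ac regions at the loci, and over the genome 328 of 41587 H3K27ac regions (0.789%) overlapped in this way. The stretch common to the 2 marks is printed on the plus strand of hg38 (at LYZ, the central 300 bases), again with motif matches in capitals. The LYZ element lies at chr12:69343663-69343962, between genes, with its first base 4718 bp upstream of the TSS. The SRGN element lies at chr10:69100661-69100899, in an intron, with its first base 12558 bp downstream of the TSS.
LYZ element: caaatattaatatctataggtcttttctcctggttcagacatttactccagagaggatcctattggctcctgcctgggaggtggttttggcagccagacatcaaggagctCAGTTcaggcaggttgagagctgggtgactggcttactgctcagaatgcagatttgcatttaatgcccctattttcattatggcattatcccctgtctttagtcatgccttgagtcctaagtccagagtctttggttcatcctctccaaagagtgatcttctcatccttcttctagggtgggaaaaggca
SRGN element: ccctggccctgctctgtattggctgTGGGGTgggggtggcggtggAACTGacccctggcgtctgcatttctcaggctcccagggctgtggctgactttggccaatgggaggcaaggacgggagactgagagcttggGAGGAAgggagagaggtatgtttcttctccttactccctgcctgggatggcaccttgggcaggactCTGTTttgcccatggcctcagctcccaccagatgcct

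The LYZ element had a single match, to AACNG, which 80.8% of 37413 stretches of 300 bases taken from peak regions also held. The SRGN element had 2 matches to AACNG (73.6% of 39604 stretches of 239 bases), 1 to TGNGGT (43.6%) and 1 to GAGGAA (26.3%). H3K27ac peaks covered 300 and 265 of the 300 bases at LYZ after Corin, and H3K4me2 peaks 229 and 300. At SRGN the corresponding values were 239 and 201 of 239 bases for H3K27ac and 234 and 228 for H3K4me2. Neither element had H3K4me3 in any library. At a matched number of peaks the LYZ element was held by both Corin lists and no DMSO list for H3K4me2 alone and the SRGN element for H3K27ac alone, and the same was true with a score of at least 100.

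Coverage, the bp under peaks within 10 kb either side of the TSS, was larger after Corin at all 7 genes for H3K27ac and H3K4me2 and at 4 genes for H3K4me3. A gene is called higher here when both Corin libraries lie above both DMSO libraries, so that the groups do not overlap. For H3K27ac 7 of 7 genes were higher, where 54.5% of the 10545 genes with any H3K27ac in their window were. For H3K4me2 7 of 7 were higher against 39.5% of 14079 genes, and for H3K4me3 4 of 7 against 25.7% of 11193. None was lower in any mark, where 0.654% (H3K27ac), 3.83% (H3K4me2) and 8.28% (H3K4me3) of genes were. Over the 7 genes, with CTSG at 0 for H3K4me3, the median difference was 3178.5 bp in H3K27ac, 1923 bp in H3K4me2 and 721.5 bp in H3K4me3, and over all covered genes it was 444, 233.5 and 63.5 bp. Being higher was itself the commoner outcome over all genes for H3K27ac. The 7 genes were also chosen with earlier results of these data known, so an excess over these shares is a description and no test. The plot of window coverage by library shows the spread behind each call. Over the gene bodies alone 6 genes were higher for H3K27ac (53.4% of genes with any there), 4 for H3K4me2 (39.7%) and 4 for H3K4me3 (23.5%), and none was lower (0.952%, 4.76% and 9.09% of genes).

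At a matched number of peaks 6 of 7 genes were still higher for H3K27ac (all but CTSG), where 35.3% of covered genes were. For H3K4me2 6 were (all but SRGN) against 31.3%, and for H3K4me3 the same 4 against 24.3%. With a score of at least 100 the counts were 6 (all but CTSG), 7 and 4, against 51.7%, 38.1% and 24.9%. With a window of 5 kb either side of the TSS the counts were 7, 5 (all but AZU1 and SRGN) and 4, against 50.5%, 35.3% and 24.8%. The median difference over the 7 genes, within 10 kb, fell to 2552.5, 1537 and 685.5 bp at a matched number, against 262, 134 and 53.5 bp over all covered genes.

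**Figure D1:**
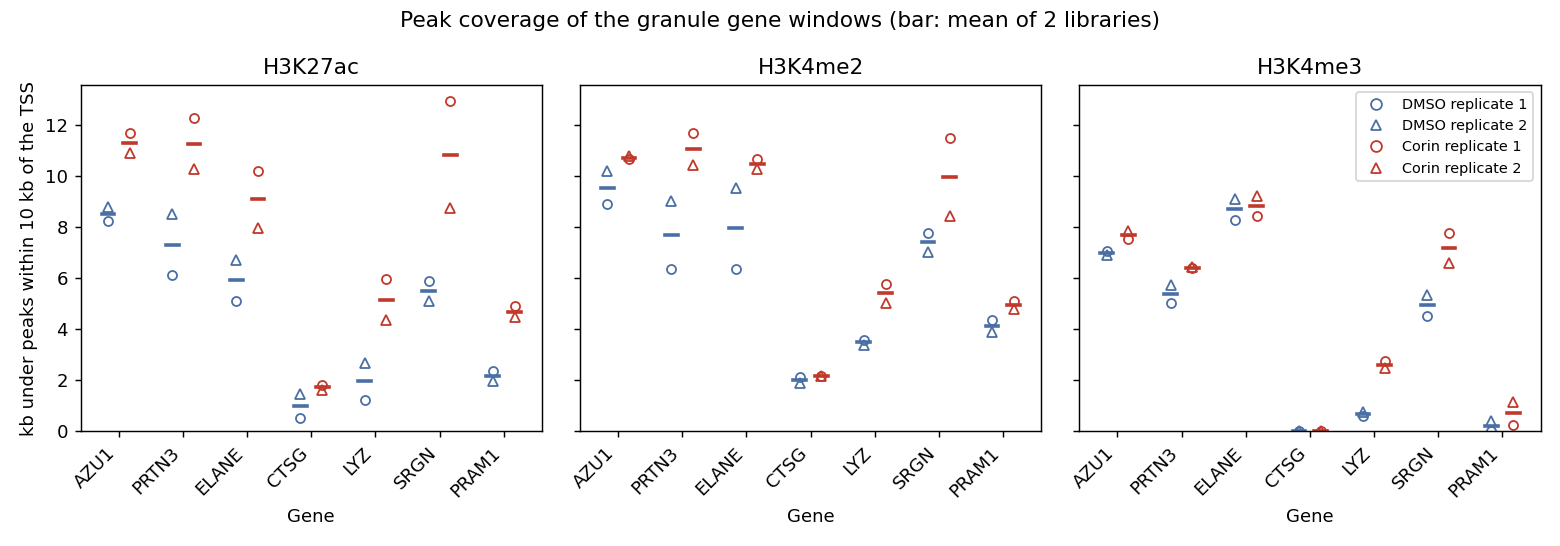
Each panel plots, for 1 histone mark, the kb under peaks within 10 kb of the TSS (vertical axis) of the 7 genes (horizontal axis), with DMSO in blue, Corin in red, circles for replicate 1, triangles for replicate 2 and a bar at the mean of 2 libraries. Red points lie above blue ones at all 7 genes for H3K27ac and H3K4me2 and at AZU1, PRTN3, LYZ and SRGN for H3K4me3, while CTSG has no H3K4me3.

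With 2 libraries against 2 the exact permutation test of 1 mark cannot go below p = 0.333. Permuting the treatment within each of the 3 marks gives 216 arrangements and a smallest p of 0.00926, and it treats libraries of different marks as independent. AZU1, PRTN3, LYZ and SRGN, higher in all 3 marks, reached that smallest p, as did 862 of 14239 genes with any coverage (6.05%). All 7 were higher in at least 2 marks, as were 27.3% of those genes. By the same exact permutation test ELANE had p = 0.0278, CTSG p = 0.0556 and PRAM1 p = 0.0648. After Benjamini-Hochberg adjustment over the 14239 genes, the exact permutation p was 0.153 for the first 4, 0.213 for ELANE, 0.250 for CTSG and 0.275 for PRAM1. No gene of the 14239 passed 0.05 after adjustment, while 2505 (17.6%) did before it, all of them higher after Corin. As the exact permutation p cannot go below 0.00926, a call needed far more than 862 genes at or near it. The lack of calls thus says little about any single gene. The mean log2 ratio over the 3 marks, with 100 bp added to each coverage, was 1.28 at LYZ, 0.96 at PRAM1, 0.63 at SRGN, 0.47 at PRTN3, 0.35 at ELANE, 0.33 at CTSG and 0.24 at AZU1. The median was 0.47 over the 7 genes and 0.29 over all tested genes.

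**Figure D2:**
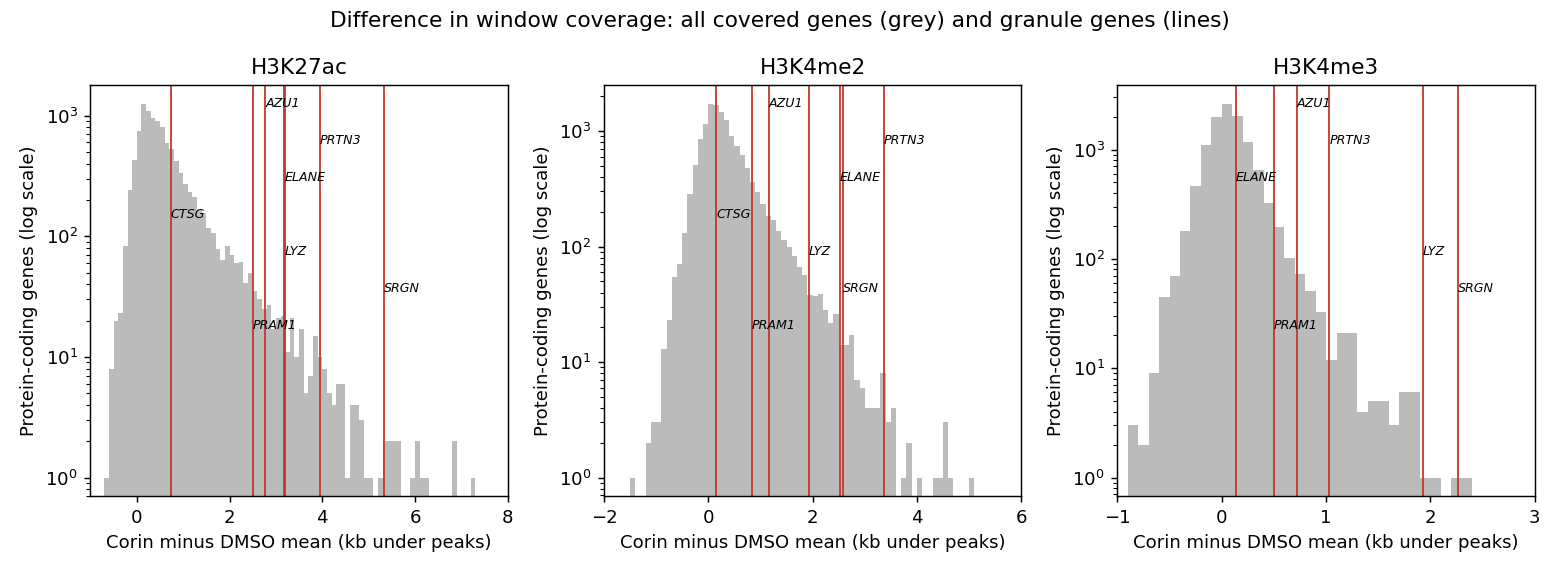
Each panel shows, for 1 mark, the number of covered protein-coding genes (grey bars, log scale) by the Corin mean minus the DMSO mean of window coverage in kb, with red lines at the 7 genes (6 for H3K4me3, where CTSG has no peak). SRGN lies furthest right of the lines for H3K27ac and H3K4me3 and PRTN3 for H3K4me2, and CTSG lies within the bulk of genes.

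AZU1, PRTN3 and ELANE encode azurocidin, proteinase 3 and neutrophil elastase, serine protease homologues stored together in the azurophil granule, azurocidin being an antimicrobial protein without protease activity. The locus, chr19:815097-861014, spans 45918 bp from 10 kb before the AZU1 record to 10 kb past the start of the ELANE record. H3K27ac peaks covered 26362 and 22780 bp of it after Corin (57.4% and 49.6%) and 16013 and 18772 bp after DMSO (34.9% and 40.9%). Both Corin libraries lay above both DMSO libraries. The difference was 7178.5 ± 3197 bp (SD of the difference, n = 2 per group), or 1.41-fold, and it was 10349 bp between the libraries numbered 1 and 4008 bp between those numbered 2. The number of H3K27ac peaks was 19 and 20 after Corin and 16 and 19 after DMSO. These ranges meet at 19, so the number of peaks did not separate the groups, while the covered length did.

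H3K4me2 covered 25251 and 24421 bp of the locus after Corin and 18595 and 23127 bp after DMSO. The groups did not overlap, and the difference of 3975 ± 3258 bp (SD of the difference, n = 2 per group) was little larger than its spread. DMSO replicate 1 stood below the other 3 libraries. Without it the difference was 1709 bp, and without DMSO replicate 2 it was 6241 bp. H3K4me3 covered 17755 and 18165 bp after Corin against 15834 and 16482 bp after DMSO, a difference of 1802 ± 542 bp (SD of the difference, n = 2 per group), or 1.11-fold. The H3K4me3 libraries were the closest to one another, and the 2 numbered pairs differed by 1921 and 1683 bp.

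At AZU1 the width of the peak over the TSS changed more than the covered length. A single H3K27ac peak ran from the 5′ part of PLPPR3, the divergent neighbour that encodes a phospholipid phosphatase-related membrane protein, across the AZU1 TSS in both Corin libraries, 8971 and 8506 bp wide. In DMSO the same stretch, chr19:819596-828617, held 3 and 4 separate peaks that together covered 7926 and 7108 bp. The peak over the TSS itself was 1853 and 1185 bp wide there. More than 99.9% of the peaks of either Corin list were narrower, against 96.5% and 88.8% in the DMSO lists. Most of the stretch thus lay under peaks in DMSO too, and the gaps between them were bridged in the Corin lists. H3K4me2 had the same form: the TSS peak was 6176 and 6395 bp wide after Corin against 1575 and 2436 bp after DMSO, over a stretch in which covered length overlapped between the groups (6176, 6395, 5847 and 6428 bp). The H3K4me3 peak over the AZU1 TSS stayed short in all libraries, 1161 and 1150 bp after Corin against 995 and 1197 bp after DMSO.

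The AZU1 window held 11686 and 10910 bp of H3K27ac after Corin and 8246 and 8803 bp after DMSO, a difference of 2773.5 ± 675 bp (SD of the difference, n = 2 per group). It was the smallest H3K27ac difference of the 3 genes of the cluster, and it fell to 1391 bp at a matched number of peaks and 1721.5 bp with a score of at least 100, with the groups still apart. H3K4me2 was at 10657 and 10776 against 8890 and 10210 bp, and H3K4me3 at 7545 and 7852 against 7057 and 6897 bp. AZU1 was among the most covered genes before treatment, its DMSO mean exceeding that of 99.9%, 99.4% and 99.6% of covered genes for the 3 marks. The H3K4me2 difference of 1166.5 bp became -103 bp with a window of 5 kb, so that call came from the outer part of the window. The window is centred on the start of the gene record, and its outer part takes in the end of AZU1. Most of the difference (1074.5 bp) lay inside the gene, at chr19:829239-831983. Over the gene body H3K4me2 was at 6068 and 6177 against 4063 and 5224 bp. The window difference was 506.5 bp without DMSO replicate 1 and 1826.5 bp without DMSO replicate 2.

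At PRTN3 the H3K27ac window coverage was 12266 and 10265 bp after Corin against 6109 and 8516 bp after DMSO, a difference of 3953 ± 2213 bp (SD of the difference, n = 2 per group), or 1.54-fold. H3K4me2 was at 11698 and 10424 against 6354 and 9040 bp and H3K4me3 at 6380 and 6448 against 5020 and 5747 bp. Without DMSO replicate 1, the lowest library in each mark, the H3K4me2 difference was 2021 bp in place of 3364 bp and the H3K4me3 difference 667 bp in place of 1030.5 bp. The H3K4me3 difference was 685.5 bp at a matched number of peaks and 553.5 bp with a score of at least 100. The groups were apart in each mark, and the difference exceeded that of 99.4%, 99.9% and 99.3% of covered genes. The DMSO mean was already above that of 99.7%, 98.4% and 98.7% of covered genes. With a window of 5 kb the difference was 1725 bp for H3K27ac and 778.5 bp for H3K4me2. The peak over the PRTN3 TSS was 2593 and 2522 bp wide after Corin against 995 and 1749 bp after DMSO for H3K27ac, and it reached mainly upstream. For H3K4me3 it lay mainly downstream, over the first part of the gene, at 3942 and 4100 bp against 3484 and 3665 bp. A H3K27ac region over the 3′ part of PRTN3, chr19:845559-847429, had peaks in both Corin libraries (1871 and 977 bp) and neither DMSO library. A short H3K4me3 region 1044 bp upstream of the TSS, chr19:839546-839955, had 410 and 241 bp after Corin and none after DMSO. Over the PRTN3 gene body alone, H3K4me3 did not part the groups (4041 and 4300 against 3877 and 4496 bp).

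ELANE, mutated in inherited neutropenias, had 10193 and 7983 bp of H3K27ac in its window after Corin and 5104 and 6715 bp after DMSO, a difference of 3178.5 ± 1934 bp (SD of the difference, n = 2 per group). Without Corin replicate 1 it was 2073.5 bp. H3K4me2 was at 10679 and 10261 against 6378 and 9528 bp, and its difference of 2517 bp was 942 bp without DMSO replicate 1 and 4092 bp without DMSO replicate 2. A large part of both differences lay at PRTN3, whose window shares these regions. For H3K27ac chr19:845559-847429 gave 1424 bp. For H3K4me2 chr19:844517-847429 gave 816.5 bp and chr19:847797-849132 gave 829 bp. Over the ELANE gene body H3K27ac differed by 616 bp, and H3K4me2 overlapped (1668 and 2076 against 1265 and 2358 bp). H3K4me3 overlapped between the groups, at 8434 and 9218 bp after Corin against 8276 and 9111 bp after DMSO, a difference of 132.5 ± 810 bp (SD of the difference, n = 2 per group). Its sign was not stable: it was -212.5 bp at a matched number of peaks, -26.5 bp with a score of at least 100 and -285 to 550 bp with a library left out. With a replicate block it was higher, since Corin lay above DMSO in both numbered pairs. Without the block ELANE was the member of the cluster whose H3K4me3 gave no call, at a DMSO level above that of 99.8% of covered genes. Its H3K4me3 peak over the TSS was 1911 and 1995 bp wide after Corin against 1849 and 1904 bp after DMSO, while that of H3K27ac was 1533 and 1845 bp against 430 and 1476 bp.

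**Figure D3:**
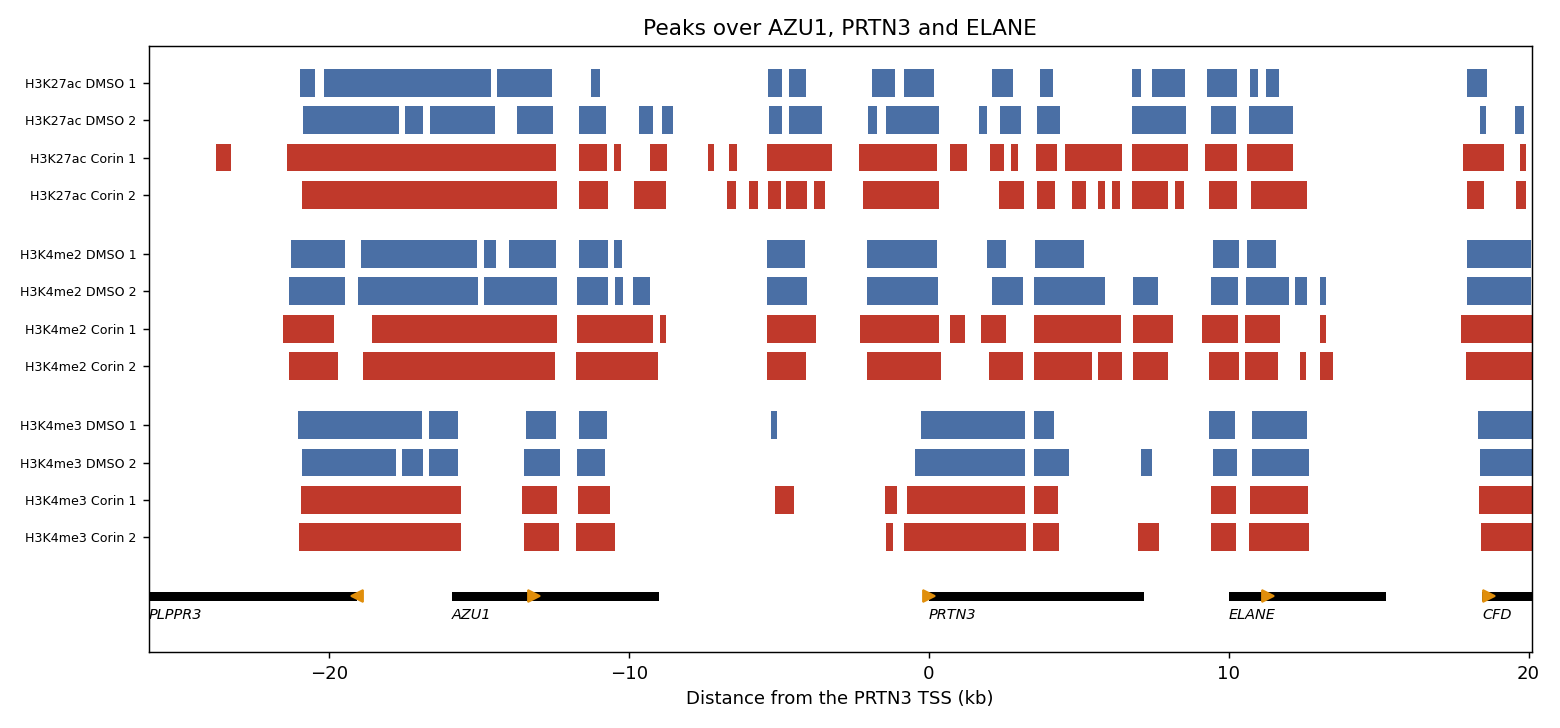
Bars are the peaks of the 12 libraries (rows, DMSO in blue and Corin in red) along the AZU1, PRTN3 and ELANE locus, by distance from the PRTN3 TSS in kb, with gene records in black and orange arrowheads at the TSS of each canonical transcript. The H3K27ac bar left of the AZU1 TSS is unbroken in both Corin rows (8971 and 8506 bp) and broken in both DMSO rows.

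CTSG encodes cathepsin G, a further serine protease of the azurophil granule, and lies at chr14:24573518-24576250 (-) beside granzyme genes. It was the least covered of the 7 genes. H3K27ac held 1811 and 1630 bp of its window after Corin and 532 and 1451 bp after DMSO, a difference of 729 ± 662 bp (SD of the difference, n = 2 per group). The groups did not overlap, but DMSO replicate 2 lay near the Corin libraries, and the difference was 269.5 bp without DMSO replicate 1 and 1188.5 bp without DMSO replicate 2. This difference exceeded that of 69.6% of covered genes. At a matched number of peaks, and with a score of at least 100, the groups were no longer apart. The difference was 393.5 bp at the matched number and 659.5 ± 1083 bp (SD of the difference, n = 2 per group) with the score of at least 100.

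H3K4me2 at CTSG was a single peak over the TSS in each library, 2153 and 2160 bp wide after Corin against 2125 and 1882 bp after DMSO. The difference of 153 ± 172 bp (SD of the difference, n = 2 per group) was smaller than its spread and above that of 41.0% of covered genes, and it was 31.5 bp without DMSO replicate 2 and 274.5 bp without DMSO replicate 1. No library had H3K4me3 in the CTSG window, and the nearest H3K4me3 peak lay 132531 to 132609 bp away. H3K4me2 without H3K4me3 over the TSS was not rare: of 4481 genes with H3K4me2 over the TSS in 4 of 4 libraries, 34.9% had no H3K4me3 there in any. GZMH, the neighbouring gene of the cytotoxic granzyme H, had 621 and 676 bp of H3K27ac and 646 and 908 bp of H3K4me2 in its window after Corin and none after DMSO. Of the Corin libraries 1 had none at a matched number of peaks in each of these marks (621 and 0 bp of H3K27ac, 0 and 908 bp of H3K4me2), and both calls were lost.

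LYZ encodes lysozyme, the enzyme that cleaves bacterial cell walls and that monocytes and macrophages as well as neutrophils secrete. It lies at chr12:69348381-69354234 (+) and had the largest ratio of the 7 genes in H3K4me3. H3K4me3 covered 2736 and 2487 bp of its window after Corin and 603 and 770 bp after DMSO. Every Corin value was more than 3 times every DMSO value. The difference was 1925 ± 212 bp (SD of the difference, n = 2 per group), a log2 ratio of 1.93 or 3.80-fold, and larger than that of 99.96% of covered genes, whereas the DMSO level exceeded that of 16.1%. H3K4me3 covered 46.3% and 41.6% of LYZ after Corin and 10.3% and 13.2% after DMSO.

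The H3K4me3 lay in 1 region, chr12:69348327-69351093, from the TSS into the gene. It was a single peak in Corin replicate 1, and 2 peaks in Corin replicate 2. The TSS itself was under H3K4me3 in both Corin libraries and in DMSO replicate 2, whose peak there was 551 bp wide, and in DMSO replicate 1 the only peak began 764 bp downstream. None of these TSS peaks stood in the upper part of its list by score: 20.8% and 49.4% of the peaks of the Corin lists scored lower, and 26.4% of those of DMSO replicate 2.

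H3K4me2 already covered the start of LYZ in DMSO, with TSS peaks of 3025 and 2999 bp that reached 335 and 299 bp upstream. After Corin they reached 1171 and 939 bp upstream. Window coverage was 5790 and 5030 bp after Corin against 3589 and 3385 bp after DMSO, a difference of 1923 ± 556 bp (SD of the difference, n = 2 per group) or 1.55-fold. Over the gene body it did not differ in this way, at 2795 and 2552 against 2690 and 2700 bp, so the added H3K4me2 lay upstream of the gene. All of the H3K4me3 at LYZ was under H3K4me2 of the same numbered library, except in Corin replicate 2, where 98.4% was.

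H3K27ac at LYZ also lay mostly upstream. The window held 5963 and 4344 bp after Corin against 1246 and 2679 bp after DMSO, a difference of 3191 ± 1529 bp (SD of the difference, n = 2 per group) or 2.63-fold. The stretch chr12:69338229-69342926, whose near end is 5455 bp upstream, reaches past the far edge of the window, and its part inside held 4546 and 3036 bp after Corin against 1246 and 2207 bp after DMSO. At the TSS the peak was short, 663 and 450 bp after Corin and 472 bp in DMSO replicate 2, and DMSO replicate 1 had none. A second region without any DMSO peak, chr12:69354589-69355159, lay just past the 3′ end of the gene with 264 and 401 bp. Within 5 kb of the TSS the H3K27ac difference was 794 bp. Over the gene body it was 153.5 bp and the groups overlapped, at 393 and 363 bp after Corin against 0 and 449 bp after DMSO.

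**Figure D4:**
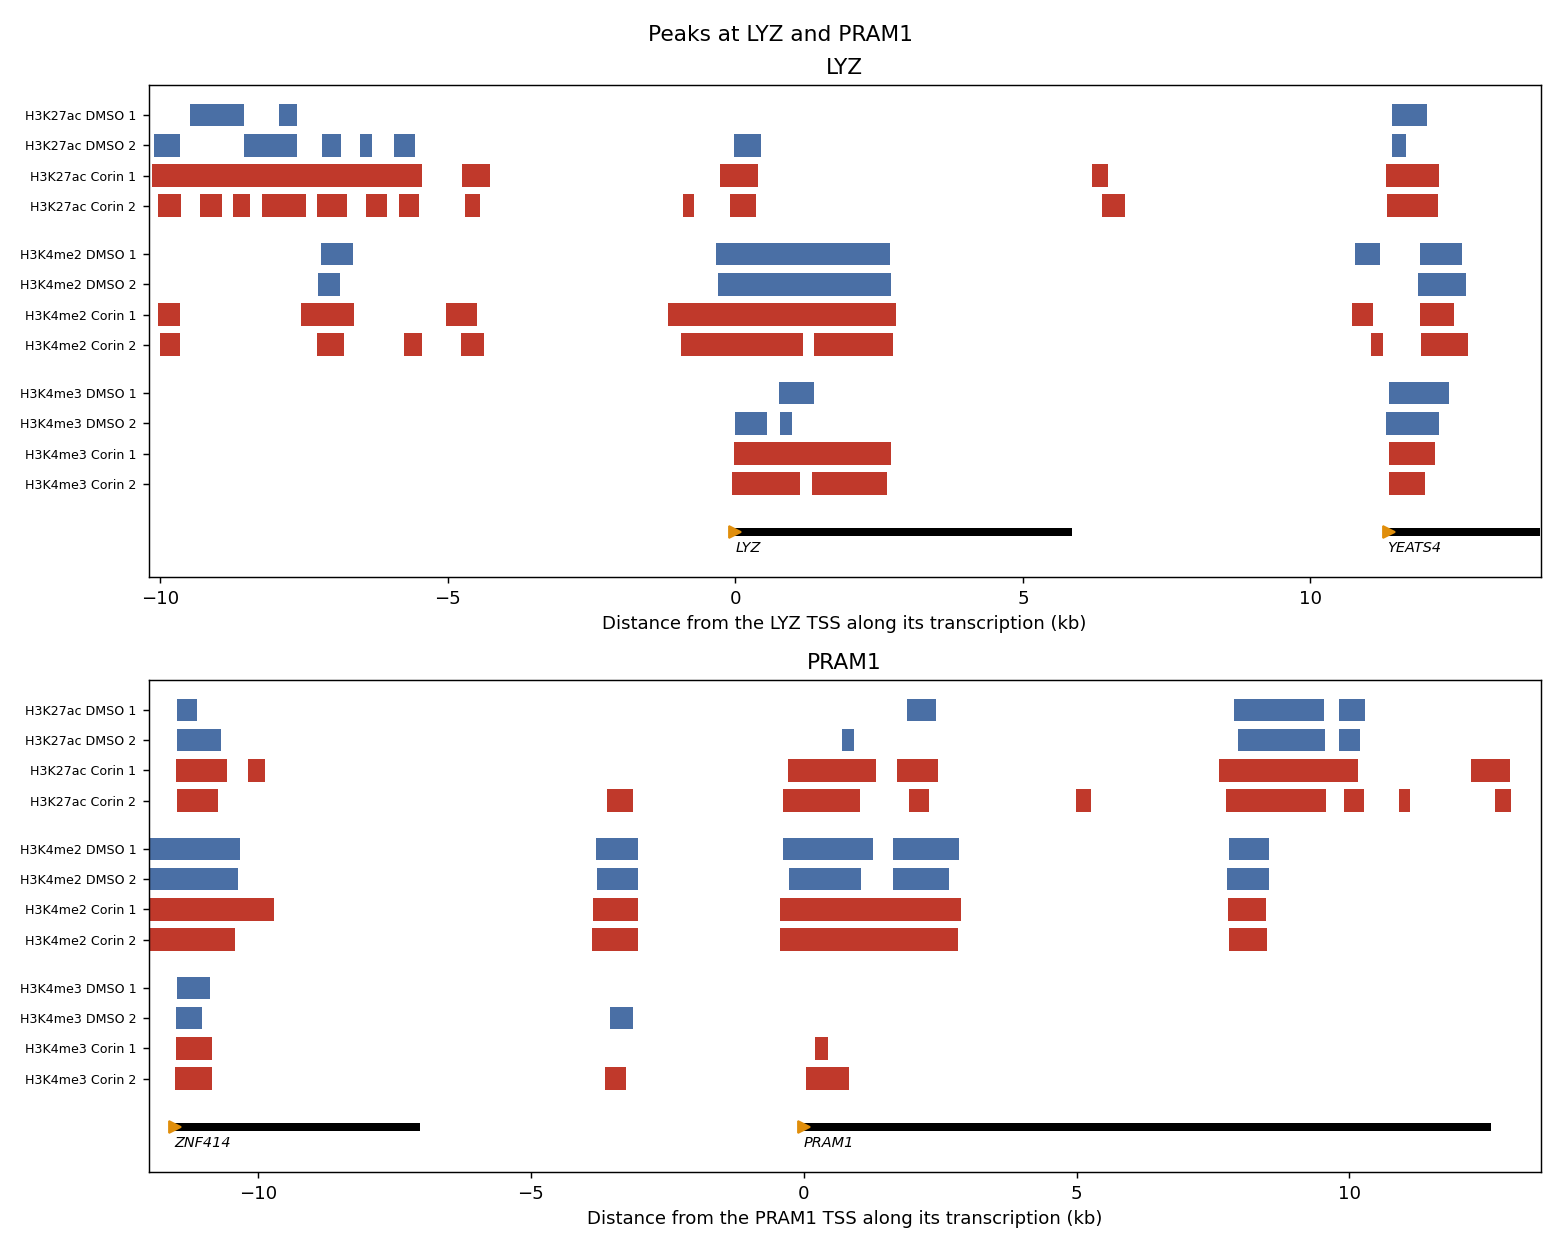
Bars are the peaks of the 12 libraries (rows, DMSO in blue and Corin in red) around LYZ (top) and PRAM1 (bottom), by distance from the TSS in kb along the direction of transcription, with gene records in black and arrowheads at TSSs. H3K4me3 reaches from the LYZ TSS into the gene in both Corin rows, and H3K27ac crosses the PRAM1 TSS in both Corin rows and neither DMSO row.

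SRGN encodes serglycin, the proteoglycan core protein on which granule proteases are packed, and lies at chr10:69088103-69104805 (+). H3K27ac covered 12925 and 8736 bp of its window after Corin and 5901 and 5108 bp after DMSO. Both Corin libraries were above both DMSO libraries and differed from each other by more than the DMSO libraries did. The DMSO mean was already above that of 99.2% of covered genes. The difference was 5326 ± 3015 bp (SD of the difference, n = 2 per group), or 1.97-fold, the largest of the 7 genes in bp and above that of 99.8% of covered genes. Without Corin replicate 1 it was 3231.5 bp. It was 3175.5 bp at a matched number of peaks, with the groups still apart. The window held 13 H3K27ac regions, of which 3 had peaks in both Corin lists and neither DMSO list, 2 upstream and 1 in an intron. The intronic region chr10:69089425-69091829, held by every list, had the largest part of the difference, at 2151 and 2357 bp after Corin against 1245 and 853 bp after DMSO. The region that ends just upstream of the TSS, chr10:69083819-69087813, did not separate the groups (3680 and 2822 against 3279 and 3038 bp). Over the TSS the H3K27ac peak was short or missing, at 223 bp in Corin replicate 2, 335 and 440 bp in DMSO and none in Corin replicate 1.

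H3K4me3 covered 7783 and 6606 bp of the SRGN window after Corin and 4534 and 5330 bp after DMSO, a difference of 2262.5 ± 1005 bp (SD of the difference, n = 2 per group) or 1.46-fold. That difference was above that of 99.98% of covered genes, and the DMSO mean was already above that of 98.2%. The peak over the TSS was 7577 and 5200 bp wide after Corin against 4534 and 5054 bp after DMSO, and in each list more than 99% of peaks were narrower. It was thus among the broadest H3K4me3 peaks of every library, and it ran mainly downstream, into the gene.

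SRGN had H3K4me3 over its TSS in 4 of 4 libraries and H3K4me2 in 0 of 4, the reverse of CTSG. The nearest H3K4me2 peak ended 595 and 364 bp upstream of the TSS after Corin and 185 and 228 bp after DMSO. This arrangement was also frequent: of 6250 genes with H3K4me3 over the TSS in 4 of 4 libraries, 26.3% had no H3K4me2 there in any. Of the H3K4me3 at SRGN, 66.4% and 50.3% was under H3K4me2 of the same numbered library after Corin and 64.8% and 67.2% after DMSO, where over the genome 72.8% to 82.6% was.

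H3K4me2 at SRGN was shorter after Corin in one part of the gene and longer in another. The window held 11499 and 8447 bp after Corin against 7769 and 7028 bp after DMSO, a difference of 2574.5 ± 2221 bp (SD of the difference, n = 2 per group), which was 1048.5 bp without Corin replicate 1 and 4100.5 bp without Corin replicate 2. In the intron, chr10:69089623-69094358, H3K4me2 was shorter after Corin, at 4235 and 2645 bp against 4626 and 4655 bp. Further on, chr10:69094616-69097233 held 2522 and 2225 bp after Corin against 416 and 0 bp after DMSO. Within 5 kb of the TSS the H3K4me2 difference was -364 bp. In the 10 kb window it was 1537 bp at a matched number of peaks, where the groups were no longer apart. With a score of at least 100 it was 2590.5 bp there, and the groups were apart.

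**Figure D5:**
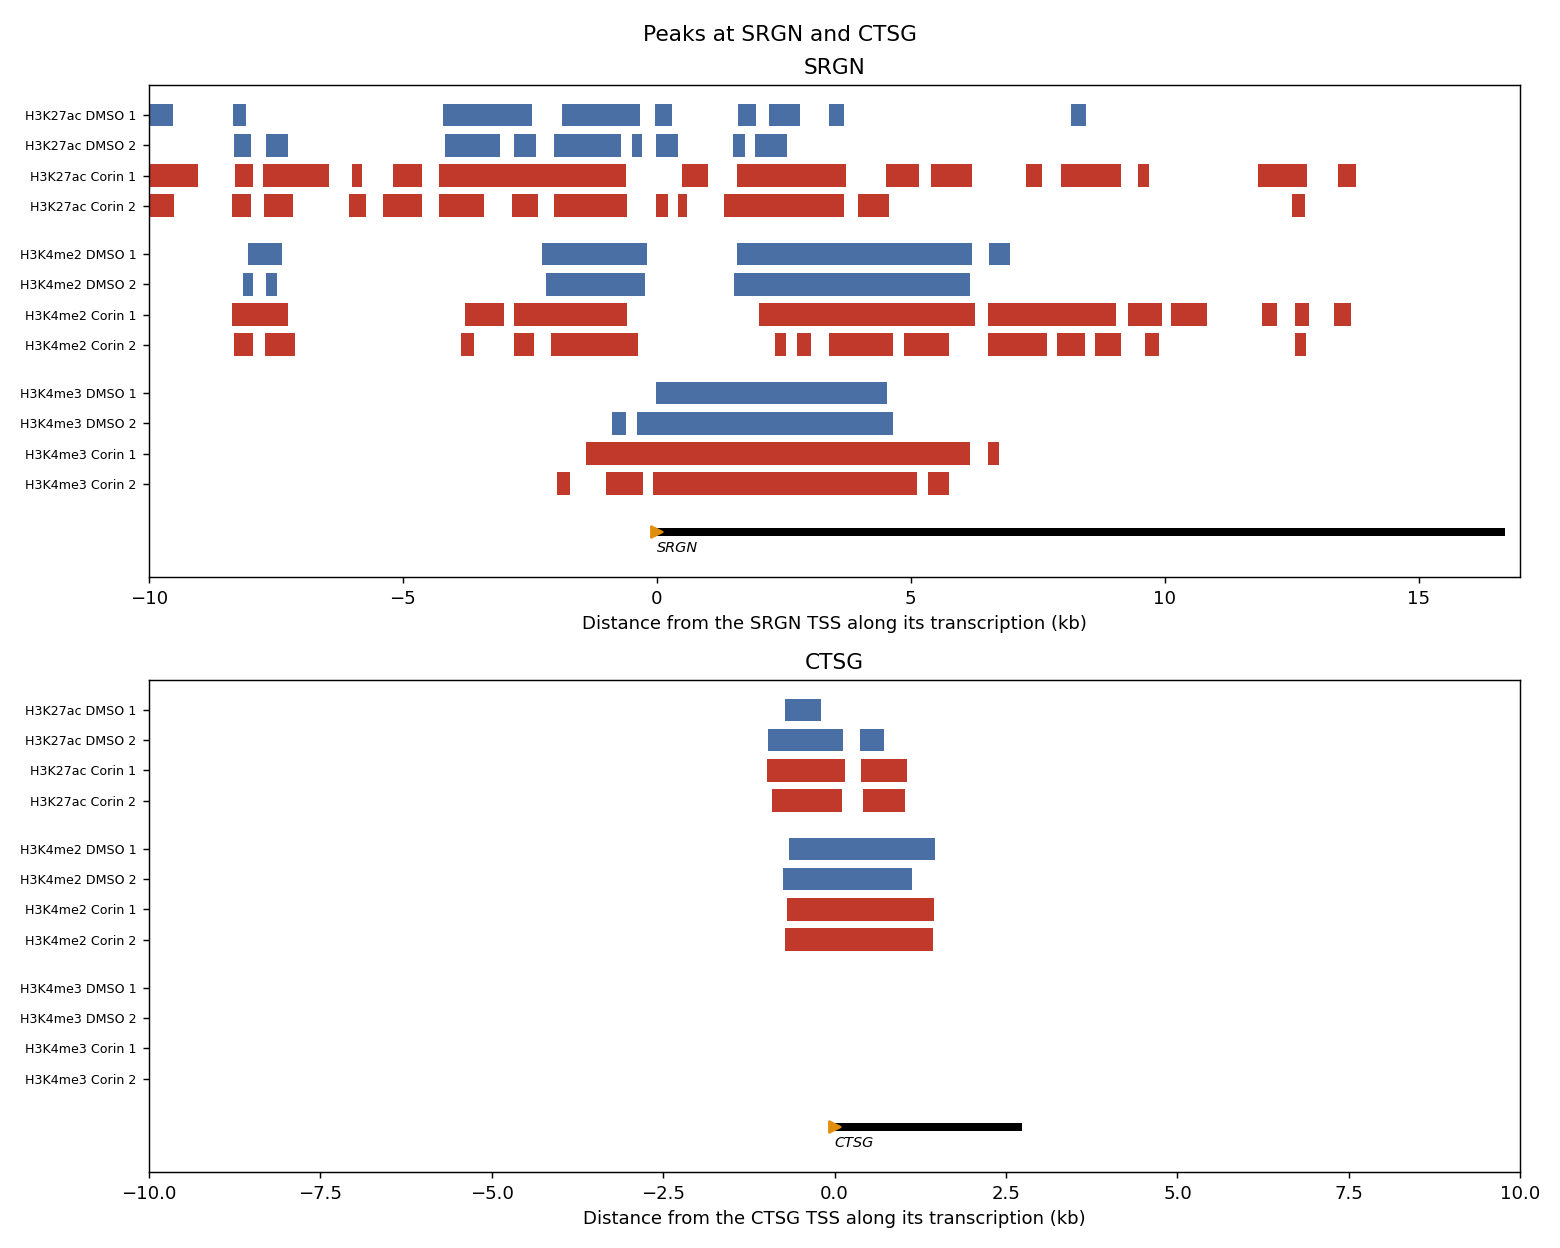
Bars are the peaks of the 12 libraries (rows, DMSO in blue and Corin in red) around SRGN (top) and CTSG (bottom), by distance from the TSS in kb along the direction of transcription, with gene records in black and arrowheads at TSSs. H3K4me3 crosses the SRGN TSS in all 4 rows and H3K4me2 in none, whereas at CTSG H3K4me2 crosses it in all 4 rows and H3K4me3 is missing.

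PRAM1 encodes an adaptor protein of myeloid cells that takes part in integrin signalling of neutrophils, and is no granule protein. It lies at chr19:8490056-8502640 (-), some distance from the protease cluster on the same chromosome. H3K27ac covered 4894 and 4462 bp of its window after Corin and 2377 and 1984 bp after DMSO, a difference of 2497.5 ± 413 bp (SD of the difference, n = 2 per group) or 2.15-fold. The 2 groups were far apart relative to the distance within each. It was the only one of the 7 genes with H3K27ac over the TSS in both Corin lists and neither DMSO list, a pattern that 3.9% of 20046 genes had. None of the 7 had that pattern for H3K4me2 (0.728% of genes) or H3K4me3 (0.454%). The peak was 1611 and 1420 bp wide, and the nearest H3K27ac in DMSO began 1888 and 710 bp inside the gene. The pattern was the same at a matched number of peaks and with a score of at least 100. An intronic H3K27ac region, chr19:8492359-8495039, was covered in all 4 libraries, at 2549 and 2184 bp after Corin against 2114 and 1968 bp after DMSO.

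H3K4me2 over the PRAM1 TSS was 1 peak of 3303 and 3264 bp after Corin, and in DMSO the same stretch held 2 peaks that covered 2864 and 2363 bp. Window coverage of H3K4me2 was 5113 and 4806 bp after Corin against 4362 and 3889 bp after DMSO, a difference of 834 ± 399 bp (SD of the difference, n = 2 per group). H3K4me3 covered the TSS in 0 of 4 libraries. Its window coverage was 248 and 1165 bp after Corin against 0 and 414 bp after DMSO, which overlap, and the difference of 499.5 bp was 108.5 bp at a matched number of peaks. It rested on single libraries, at 41 bp without Corin replicate 2, 958 bp without Corin replicate 1 and 292.5 bp without DMSO replicate 1. With a replicate block PRAM1 was higher in H3K4me3 in both numbered pairs. Close to the TSS, at chr19:8501817-8502598, H3K4me3 was present after Corin with 248 and 782 bp and in neither DMSO library. That region began 42 bp inside the gene.

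Counted by region instead of by length, the loci of the 7 genes held 50 H3K27ac regions, of which 9 had peaks in both Corin lists and neither DMSO list, and over the genome 11.5% of 41587 regions did. For H3K4me2 it was 5 of 35 regions against 9.64% of 42429, and for H3K4me3 2 of 17 against 1.49% of 12090. No region was lost, that is, held by both DMSO lists alone, as were 0.18%, 0.158% and 0.289% of all regions. These counts depended on list size. At a matched number of peaks 3 of 41, 3 of 27 and 1 of 17 regions had this pattern, against 4.49%, 3.91% and 0.804% over the genome. With a score of at least 100 it was 4 of 42, 3 of 30 and 1 of 14, against 14.7%, 9.53% and 1.42%, so the H3K27ac share at the genes was then below that of the genome. They also depended on single libraries: the H3K27ac count was 14 without Corin replicate 1, 18 without Corin replicate 2 and 15 without DMSO replicate 2, where the share over the genome was 24.6%, 36.9% and 19.9%. The H3K4me2 count was 10 without Corin replicate 2, where that share was 21.3%. Regions present in all 4 lists were 18 of 50 for H3K27ac, 20 of 35 for H3K4me2 and 10 of 17 for H3K4me3, and over the genome 22.8%, 55.6% and 80.8% were. Of the 9 H3K27ac regions, 4 were at SRGN, 2 at LYZ, 2 at the chromosome 19 cluster and 1 at PRAM1. Of the 5 H3K4me2 regions, 3 were at SRGN and 2 at LYZ.

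Counts in the lists that follow are to be read against the same shares over all covered genes (54.5%, 39.5% and 25.7% higher and 0.654%, 3.83% and 8.28% lower for H3K27ac, H3K4me2 and H3K4me3), and at a matched number of peaks against 35.3%, 31.3% and 24.3% higher and 3.51%, 7.57% and 9.18% lower.

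Of 10 other azurophil granule genes, 9 had H3K27ac in their windows and 6 were higher after Corin, 9 had H3K4me2 and 7 were higher and 1 lower, and 6 had H3K4me3 and 1 was higher. With list sizes matched 4 of 9, 6 of 9 (1 lower) and 1 of 6 were higher. MPO, the myeloperoxidase gene, had 10706 and 7857 bp of H3K27ac after Corin and 6274 and 7508 bp after DMSO. Its H3K4me2 was at 2412 and 3643 against 2048 and 2110 bp, and like CTSG it had no H3K4me3 in any library. PRSS57, a serine protease gene of the same granule, had 4718 and 6360 against 4206 and 4540 bp of H3K27ac. RNASE2, the gene of a secreted ribonuclease, had 4547 and 4160 against 3826 and 1795 bp. Both H3K27ac calls, at PRSS57 and RNASE2, were lost at a matched number. The difference was then 363 bp in place of 1166 bp at PRSS57 and 1052 bp in place of 1543 bp at RNASE2. CTSD, the gene of the lysosomal protease cathepsin D, had 2048 and 767 bp of H3K27ac after Corin and none after DMSO. At a matched number it had 553 and 575 bp after Corin and none after DMSO. DEFA4, a defensin gene, had no peak of any mark. Over the genes of the list with a peak, the median difference was 1086.5 bp for H3K27ac, 635 bp for H3K4me2 and 189.5 bp for H3K4me3, against 444, 233.5 and 63.5 bp over all covered genes.

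Of 6 genes that activate or inhibit granule proteases, 3 of the 4 with H3K27ac were higher, 0 of the 5 with H3K4me2 and the 1 with H3K4me3. With list sizes matched these were 1 of 3, 0 of 3 and 1 of 1. SERPINB1, the gene of an intracellular inhibitor of elastase, cathepsin G and proteinase 3, had 711 and 910 bp of H3K27ac after Corin against 604 and 461 bp, and 1027 and 830 bp of H3K4me3 against 676 and 744 bp. CTSC, whose product activates the granule serine proteases and which was picked out after its values were seen, overlapped between the groups in both H3K27ac and H3K4me2.

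Genes of the specific and gelatinase granules, which form later in neutrophil maturation, were mostly without peaks. Of 12, 7 had no peak of any mark in any library: LTF, LCN2, MMP8, OLFM4, CRISP3, PGLYRP1 and ARG1. Of all 20046 protein-coding genes 5807 had none. The 5 with H3K27ac were all higher after Corin, as were 4 of the 5 with H3K4me2. With list sizes matched only 1 of 4 was higher for H3K27ac (CYBA), and 4 of 5 were for H3K4me2. CHI3L1, a chitinase-like secreted protein gene, had 4305 and 4563 bp of H3K4me2 after Corin and 1508 and 1595 bp after DMSO, and H3K27ac of 931 and 527 bp in Corin alone. CAMP, the cathelicidin gene, had 1717 and 1461 bp of H3K4me2 against 440 and 441 bp. MMP9, the gene of gelatinase B, had 4145 and 3472 against 1265 and 2163 bp, and CYBB, the gene of an NADPH oxidase subunit, had 2649 and 1074 against 597 and 663 bp. H3K27ac at CAMP, at most 441 bp, was gone from all lists at a matched number of peaks, and the difference at MMP9 was then -107 bp. CHI3L1 and CYBB then had H3K27ac in Corin replicate 1 alone, at 307 and 329 bp.

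Of 8 transcription factor genes of the myeloid lineage, 6 of the 7 with H3K27ac were higher, 4 of the 7 with H3K4me2 (1 lower) and 3 of the 6 with H3K4me3 (1 lower). The counts at a matched number were 5 of 6, 4 of 7 (1 lower) and 2 of 6 (1 lower). SPI1, which encodes PU.1, was higher in all 3 marks, as was IRF8, whose H3K27ac was gone from every list at a matched number. SPI1 had 6405 and 6186 against 4815 and 4476 bp of H3K27ac and 4132 and 4295 against 2841 and 3081 bp of H3K4me3. CEBPE, which drives later granule genes, had 3030 and 2888 against 1288 and 863 bp of H3K27ac and 7302 and 5949 against 3719 and 3357 bp of H3K4me2. CEBPA had 9387 and 7666 against 3551 and 5818 bp of H3K27ac, with H3K4me2 that overlapped. MYB had 13870 and 10915 against 9358 and 9573 bp of H3K27ac, with H3K4me3 that overlapped. The window of RUNX1, taken at the start of its gene record, had no peak.

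8 protein-coding genes start within 50 kb of a member, and 7 of 8 were higher for H3K27ac, 3 of 8 for H3K4me2 (1 lower) and 2 of the 7 with H3K4me3 (1 lower). The counts at a matched number were 6 of 8, 2 of 8 (2 lower) and 2 of 7 (1 lower). The H3K4me2 and H3K4me3 counts were thus near the shares over all covered genes. PLPPR3 starts so close to AZU1 that their windows share most peaks, and its H3K4me3 values are those of AZU1. YEATS4, the gene next to LYZ, was higher for H3K4me3, at 2183 and 1938 against 1086 and 924 bp. Its window takes in part of LYZ, and with a window of 5 kb the difference was -272 bp. ZNF414, next to PRAM1, had 1669 and 1428 against 372 and 803 bp of H3K27ac.

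The genes whose coverage over the 12 libraries was closest to that of each member, by the summed absolute difference in window bp, were PIGX and NRROS for AZU1, P2RY2 and PPP1R27 for PRTN3, KLF16 and APOLD1 for ELANE, KLHL33 and CIITA for CTSG, ARL11 and GPX1 for LYZ, ZEB2 and ZNF516 for SRGN, and KCNN4 and TAGAP for PRAM1. The summed difference was 10.3% of the member's own summed coverage for PRAM1 and KCNN4, the closest pair. It was 19.1% for CTSG and CIITA, the least close of the 14. PIGX and NRROS had the same values as each other in all 8 H3K4me2 and H3K4me3 libraries. In H3K4me3 the genes like LYZ were of both kinds: ARL11 overlapped between the groups, at 1805 and 1303 bp after Corin against 1144 and 1541 bp after DMSO, and GPX1 was higher, at 1837 and 2268 against 1462 and 1810 bp.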

How the data were processed

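CUT&RUN peaks of H3K27ac, H3K4me2 and H3K4me3 in MOLM-13 cells were used as 12 deposited peak lists, 1 per library. The submitters' processing notes name Trim Galore, Bowtie2, Picard and MACS2 and the build GRCh38 (hg38); versions, the control and the calling threshold are not given in the sources used here. None of the 292523 peaks ended past a hg38 chromosome end. The score deposited by the authors (column 5, at least 50 in each list) has no stated definition, and no value was compared across lists: it served for ranking and filtering inside each. The labels give a minimum of 5000000 paired 150 bp reads per library.

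For each protein-coding gene the bp under peaks within 10 kb of the 5′ end of its GENCODE release 44 record, and over its gene body, was summed per library. Widths and distances at a TSS use the canonical transcript. Regions are the 4 lists of a mark merged, held by a library at 1 bp of overlap. Where peaks stop depends on read depth and on the calling, so coverage measures called length, not signal. Alternatives were a matched number of top-scoring peaks, a score of at least 100, windows of 5 kb, gene bodies, canonical TSSs, 50% overlap, a pseudocount of 1000 bp, a replicate block and leaving out each replicate. The TSS peaks and the other gene lists were also counted at the matched number and the score of at least 100, a choice made after seeing the data.

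The exact test was tested on simulated data. Python 3.11.15 with numpy 2.4.6 and pandas 2.3.3 was used, and matplotlib 3.10.9 for the figures. The members and lists were chosen with earlier results of these data known. From each list the genes called in 1 direction in at least 2 marks are named, at most 4 a list by summed change. IRF8, CTSC, the genes without any peak and the genes of the last section were named after their values were seen. For each member the 2 genes of closest coverage are named.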

Additional observations from a re-analysis of the deposited data

How the results depend on the processing

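Without reads, depth limits every statement to called peaks, and small differences are near the length of a single short peak. Leaving out a library cannot undo a call of groups that are apart, so it checks no member's call. The counts were then 7 for H3K27ac and H3K4me2 and 4 to 6 for H3K4me3 (6 without Corin replicate 1 or DMSO replicate 2), with 0 lower, where 63.4% to 80.9%, 47.1% to 66.6% and 36.9% to 49.8% of covered genes were higher. Over gene bodies 4 members in place of 7 were higher for H3K4me2, because LYZ, ELANE and CTSG overlapped there, and 6 (all but LYZ) and 4 were for H3K27ac and H3K4me3. The chromosome 19 locus differences kept their direction in every alternative run, from 5387.5 to 8969.5 bp for H3K27ac, 1709 to 6241 bp for H3K4me2 and 1478 to 2126 bp for H3K4me3 with a library left out. They were 5026, 3404.5 and 1457 bp at a matched number of peaks.

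Regions held by the Corin lists alone numbered 9 for H3K27ac, 3 at a matched number, 4 with a score of at least 100 and 10 to 18 with a library left out. For H3K4me2 the counts were 5, 3, 3 and 6 to 10, and for H3K4me3 2, 1, 1 and 2 to 3. Regions held by DMSO alone stayed at 0 except for 1 for H3K27ac without DMSO replicate 1. Fewer peaks were kept at a matched number and at the stricter score, and the cause of the lower counts there was not tested. Leaving out a library loosens the rule, so those counts cannot fall. The three-mark test called 0 genes in each alternative (smallest adjusted exact permutation p from 0.153 to 0.637). With a library left out its 27 arrangements allow no p below 0.0370 before adjustment. In every run the test could call a gene only if many more genes had a p near the smallest possible, so its 0 calls say little about single genes. With a library left out its mean log2 ratio ranged from 1.07 to 1.49 at LYZ, 0.64 to 1.29 at PRAM1, 0.42 to 0.83 at SRGN, 0.28 to 0.67 at PRTN3, 0.17 to 0.54 at ELANE, 0.14 to 0.51 at CTSG and 0.19 to 0.28 at AZU1.

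Of called differences of the genes named by rule, the sign changed at 5 kb for H3K4me2 at AZU1 (-103 bp), SRGN (-364 bp), CTSD and MYB (-43.5 bp each) and PLPPR3 (-11 bp) and for H3K4me3 at YEATS4 (-272 bp). Over gene bodies it changed for H3K4me2 at LYZ (-21.5 bp), CTSD (-37 bp) and PLPPR3 (-167.5 bp) and for H3K4me3 at PRTN3 (-16 bp), PLPPR3 (-1 bp) and YEATS4 (-260.5 bp). At a matched number it changed for H3K27ac at MMP9 (-107 bp) and, among the other genes of the lists, SERPINA1 (from 871 to -133.5 bp). Of differences without a call, it changed at a matched number for H3K4me3 at ELANE (-212.5 bp) and H3K4me2 at YEATS4 (-953 bp, and there the Corin libraries then lay below), with a score of at least 100 at the same places (-26.5 and -439 bp) and for H3K4me3 at MYB (from -45 to 294 bp), at 5 kb for H3K4me2 at YEATS4 (-29 bp), and over gene bodies for H3K4me2 at CEBPA (-229 bp) and YEATS4 (-89.5 bp) and H3K4me3 at MYB (54.5 bp). Other listed genes without a call turned at a matched number for H3K27ac at RNASE3 (-128.5 bp) and H3K4me2 at VPS26A (-19.5 bp) and PTBP1 (-154.5 bp), and for them the other settings were not run, except a score of at least 100, which turned none. A library left out also turned uncalled differences for H3K4me2 at CEBPA and YEATS4 and for H3K4me3 at ELANE, CTSD, MYB, PRSS57 and ZNF414. The cause was not tested.

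With a replicate block (Corin above DMSO in both same-numbered pairs) 7, 7 and 6 members were higher for the 3 marks (ELANE and PRAM1 were added for H3K4me3), where 65.8%, 49.9% and 37.2% of covered genes were, and the three-mark test gave 0 genes with 64 arrangements and a smallest p of 0.0312. The SD of the paired difference at the chromosome 19 locus was 4484 bp for H3K27ac, 3792 bp for H3K4me2 and 168 bp for H3K4me3. Deviations of same-numbered libraries correlated at 0.285, 0.310 and 0.228, with only 2 pairs per mark, and no label says what libraries of 1 number have in common.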

Other observations

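Of 34 listed genes with a peak, 3 were higher in at least 1 mark and lower in another, as were 5.5% of all 14239 covered genes, and they were picked out after their values were seen. GFI1, the gene of a repressor that recruits LSD1, had 12725 and 10612 bp of H3K27ac in its window after Corin against 7076 and 7933 bp after DMSO. Its H3K4me2 was at 6668 and 7021 against 7061 and 9454 bp, so both Corin libraries lay below both DMSO libraries there, and its H3K4me3 overlapped (10426 and 9665 against 9667 and 9188 bp). GUSB, the gene of the granule enzyme beta-glucuronidase, had H3K27ac after Corin alone (917 and 1256 bp), slightly less H3K4me2 (1082 and 1161 against 1175 and 1213 bp) and more H3K4me3 (1452 and 1331 against 1168 and 1322 bp). MED16, a Mediator subunit gene near ELANE, had 851 and 1039 against 225 and 592 bp of H3K27ac and 943 and 1058 against 1260 and 1126 bp of H3K4me2. CEBPB overlapped in H3K27ac and H3K4me2 and was lower in H3K4me3 alone, at 2443 and 2377 against 2711 and 2677 bp.

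IRF8, a factor gene of the monocyte branch, had H3K27ac after Corin alone, at 1462 and 569 bp (in no list at a matched number of peaks), and 4290 and 4093 against 3713 and 3535 bp of H3K4me3. BPI, the gene of an antimicrobial protein of the azurophil granule, had 1867 and 992 against 766 and 684 bp of H3K27ac and, like CTSG and MPO, no H3K4me3 in any library.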
